A study of Mus musculus with 12 samples.

Results

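The SLC25 family holds the carriers that move metabolites, nucleotides and cofactors across the inner mitochondrial membrane, and 40 of its genes were followed in mouse T helper 1 (Th1) cells. The members were the rows of the expression table whose symbol starts with Slc25a and a digit, apart from Slc25a1, Slc25a11, Slc25a12, Slc25a13 and Slc25a20. This took 40 of 45 such rows and 40 of the 18929 genes of the table. RNA came from sorted T cells of the C57BL/6 strain that had been kept for 5 days under Th1 conditions. The genotype of 3 libraries was Sdhc cKO, a conditional knockout of the gene for an anchor subunit of complex II (succinate dehydrogenase), and they were set against 3 control libraries of WT genotype. The sources used here do not give the Cre driver, the deleted exons or the number of mice per library. The series has 12 samples, and the 6 with Slc25a1 KO, Slc25a11 KO or empty vector were not analysed here, nor were the family genes Slc25a21, Slc25a52 and Slc25a54.

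Carriers of this family are small proteins with a repeated fold that open in turn to either side of the membrane. Most exchange a substrate of the cytosol for a substrate of the matrix, and they are imported by the TIM22 complex. Through them mitochondria export ATP, take up phosphate and cofactors, and trade amino acids and organic acids, which activated T cells use for growth. Complex II oxidises succinate, a substrate of the dicarboxylate carrier encoded by Slc25a10.

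Values are reads per gene after division by the size factor of the library and are given as normalised counts. The libraries held 18144933 to 21983821 recovered reads. The T cell markers Cd3e, Cd3d, Cd3g, Cd4, Tbx21 and Ifng summed to 34266 to 39844 normalised counts in cKO and 34064 to 36318 in control libraries, against 39.8 to 76.3 in cKO and 46.3 to 64.7 in control libraries for 4 B cell markers. Among the 6 T cell markers, Tbx21 and Ifng were below all controls in each cKO library. Sdhc itself had 1452, 1562 and 1655 normalised counts in cKO libraries 1, 2 and 3, against 1683, 1602 and 1892 in controls 1, 2 and 3, and was not called (adjusted p = 0.978 by limma). Counts per gene do not resolve the deleted part, so they do not check the labels. Sex-linked transcripts differed between libraries. Xist had 7565, 0 and 2.15 normalised counts in cKO 1, 2 and 3 and 9780, 2490.5 and 6406 in controls 1, 2 and 3. Reads of 4 Y-linked genes were at 0.207, 193 and 189 RPM (reads scaled to the library total) in the cKO and 0.048, 131 and 55.1 RPM in the control libraries. Principal component 1 held 49.1% of the variance and set cKO 1 and control 1 apart from the other 4 libraries.

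Promoters were available for 29 of the 40 members. Stretches of 200 bases before the RefSeq transcription start are shown for 4 members lower in every cKO library (Slc25a15, Slc25a17, Slc25a24 and Slc25a39). They are also shown for the adenine nucleotide carriers Slc25a5 and Slc25a4, of which Slc25a5 had the highest control level per kb of the family. The sequences are those of RefSeq on GRCm38.p6, written 5′ to 3′ along the gene. By the GENCODE gene bounds used for positions, the stretches of Slc25a39 and Slc25a4 lie inside the gene, and that of Slc25a17 partly so. Capitals mark the GC box letters GGGCGG and the CCAAT letters, on either strand, and the capital stretches do not overlap.
Slc25a15 (chr8:22398622-22398821, minus strand): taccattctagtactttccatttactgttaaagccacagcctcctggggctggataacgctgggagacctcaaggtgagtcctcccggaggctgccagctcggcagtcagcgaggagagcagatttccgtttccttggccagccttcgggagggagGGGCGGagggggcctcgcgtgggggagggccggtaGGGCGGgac
Slc25a17 (chr15:81360766-81360965, minus strand): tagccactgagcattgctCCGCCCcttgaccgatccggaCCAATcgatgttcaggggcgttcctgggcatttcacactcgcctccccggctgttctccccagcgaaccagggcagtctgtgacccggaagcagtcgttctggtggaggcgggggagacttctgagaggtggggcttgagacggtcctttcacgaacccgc
Slc25a24 (chr3:109122949-109123148, plus strand): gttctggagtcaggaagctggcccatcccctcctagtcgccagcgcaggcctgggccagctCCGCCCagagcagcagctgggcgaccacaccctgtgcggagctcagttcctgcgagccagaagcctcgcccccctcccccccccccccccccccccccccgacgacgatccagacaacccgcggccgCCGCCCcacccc
Slc25a39 (chr11:102407518-102407717, minus strand): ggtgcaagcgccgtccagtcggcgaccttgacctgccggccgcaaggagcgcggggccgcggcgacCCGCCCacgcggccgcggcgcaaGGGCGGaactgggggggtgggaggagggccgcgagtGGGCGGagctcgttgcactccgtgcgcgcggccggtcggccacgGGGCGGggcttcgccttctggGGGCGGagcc
Slc25a5 (chrX:36795397-36795596, plus strand): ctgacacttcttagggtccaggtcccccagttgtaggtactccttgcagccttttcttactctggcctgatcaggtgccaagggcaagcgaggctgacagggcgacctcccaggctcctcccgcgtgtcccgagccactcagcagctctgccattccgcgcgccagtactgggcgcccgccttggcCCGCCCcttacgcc
Slc25a4 (chr8:46211063-46211262, minus strand): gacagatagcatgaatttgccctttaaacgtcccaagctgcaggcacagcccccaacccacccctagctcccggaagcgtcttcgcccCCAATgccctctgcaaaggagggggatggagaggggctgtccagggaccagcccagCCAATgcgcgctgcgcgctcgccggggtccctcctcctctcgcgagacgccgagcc
In the 250 bases before the start, GGGCGG was found in 21 of the 29 promoters of members (72.4%) and in 32.7% of all 32851 RefSeq promoters. CCAAT was found in 12 of the 29 (41.4%) and in 33.9% of all. The E-box CACGTG was found in 4 of the 29 (13.8%) and in 6.02% of all. Slc25a39 held 5 GC boxes, Slc25a15 and Slc25a24 held 2 each, and Slc25a17 and Slc25a5 held 1 each. Slc25a4 held none and had 2 CCAAT boxes instead. For each member only the promoter nearest its gene start was used, whereas every RefSeq entry was counted among all promoters, expressed here or not. The shares are therefore not like for like. These are matches of letters and say nothing of which factors bind. Slc25a2, Slc25a32 and Slc25a46, described below with their values, had no entry.

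Th1 cells expressed the family over a wide range of levels. Per kb of merged exons, Slc25a5, which encodes the adenine nucleotide carrier ANT2, stood first with 4021 normalised counts per kb in cKO and 4743 in control libraries. Slc25a3, the phosphate carrier that supplies ATP synthase, followed with 1199 in cKO and 1264 in control, and Slc25a4, the adenine nucleotide carrier ANT1, with 892 in cKO and 933 in control. The glutathione carrier gene Slc25a39 had 537 in cKO and 577 in control, the peroxisomal cofactor carrier gene Slc25a17 298 in cKO and 326 in control, and the ATP-magnesium carrier gene Slc25a24 250.5 in cKO and 285 in control. The first 5 members made up 76.2% of the summed control level per kb of the family, and Slc25a5 with Slc25a3 58.4%. The merged exons, which join all annotated forms of a gene, were 1646 bases long for Slc25a5 and 5550 for Slc25a3. Before division by length, Slc25a5 had 7807 and Slc25a3 7018 normalised counts in control libraries. The order and the shares therefore depend on the length used. Ordered by control level, 10 of 39 neighbours had control ranges that did not overlap, among them each step from Slc25a5 down to Slc25a17. The control ranges of the other 29 neighbours overlapped, so most ranks in the middle and at the low end of the order were not resolved.

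**Figure D1:**
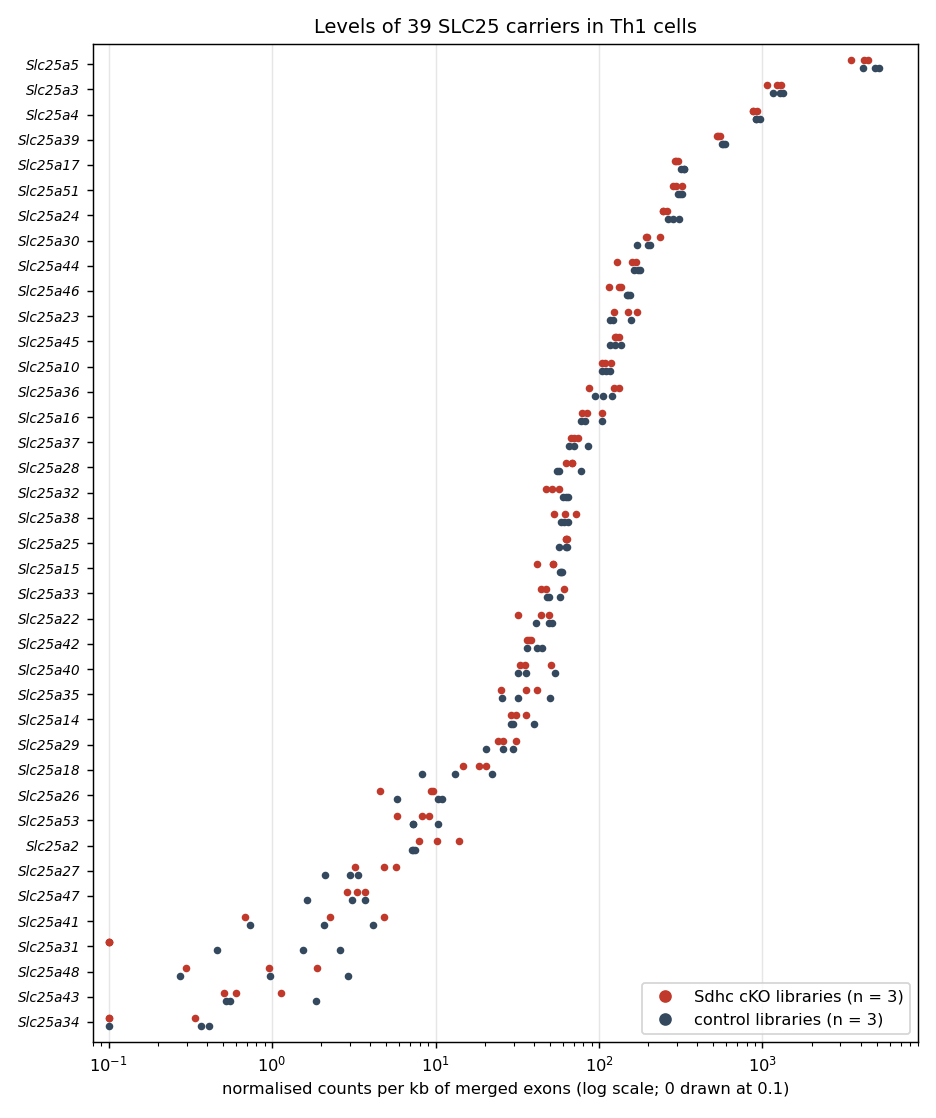
Normalised counts per kb of merged exons (log scale) of 39 of the 40 members, ordered by control mean, with each point 1 library (n = 3 Sdhc cKO and 3 control). Slc25a5 lies highest, at a mean of 4021 in cKO and 4743 in control, and 7 members have a control mean below 5 (values of 0 are drawn at the left edge).

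At the low end, 7 members had a control mean below 5 normalised counts per kb. These were Slc25a27, Slc25a31, Slc25a34, Slc25a41, Slc25a43, Slc25a47 and Slc25a48, with Slc25a34 the lowest by control level at 0.113 normalised counts per kb in cKO and 0.260 in control libraries. Slc25a31, the testis form of the adenine nucleotide carrier, had 0 reads in each cKO library, against 6, 1 and 3 reads in controls 1, 2 and 3. With cKO set at a floor of 3 reads over its 3 libraries, the control rate was 3.34-fold higher. The control count of 10 reads was taken as exact here, so this is not a lower bound. Apart from Slc25a27, these members, 6 in number, did not reach a value over 10 in at least 3 libraries and were not tested.

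Of the 34 members tested, 0 passed the test over all 12699 tested genes (limma-trend on log2(value + 1), adjusted p threshold 0.05), where 0% of all tested genes passed. Fold changes were small. They were negative for 21 members, against 54.1% of all tested genes, and positive for 13, with a median of -0.05 on the log2 scale, against -0.01 over all tested genes. Without control 1 the median was -0.0085, with 18 members negative. With no filter on low values, 25 of the 40 members were negative, at a median of -0.06. An unadjusted p under 0.05 was reached by 2 of 34 members (5.88%), Slc25a32 and Slc25a46, against 3.5% of all tested genes. All 3 cKO values lay below all 3 controls at 6 of 34 members (17.6%), against 5.64% of all tested genes, and above them at 1, against 4.51%. In either direction 7 members (20.6%) did not overlap, against 10.2% of all tested genes. These include Slc25a2, which was tested only because cKO was high, and Slc25a24, whose groups overlapped under each of the other scalings. Summed over all 40 members, the counts were 29005 ± 1521 in cKO and 31171 ± 1141 in control (SD, n = 3 each), or 93.1% of control, with groups that overlapped except under library-total scaling. The labels do not say whether replicates were separate mice or cultures, so p-values reflect variation among the 6 libraries, part of which may be technical. Xist and Y-linked reads differed within each genotype, as given above, so the libraries of a genotype were not all repeats of the same RNA. In bulk RNA, fewer cells of a type and less RNA per cell cannot be told apart.

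**Figure D2:**
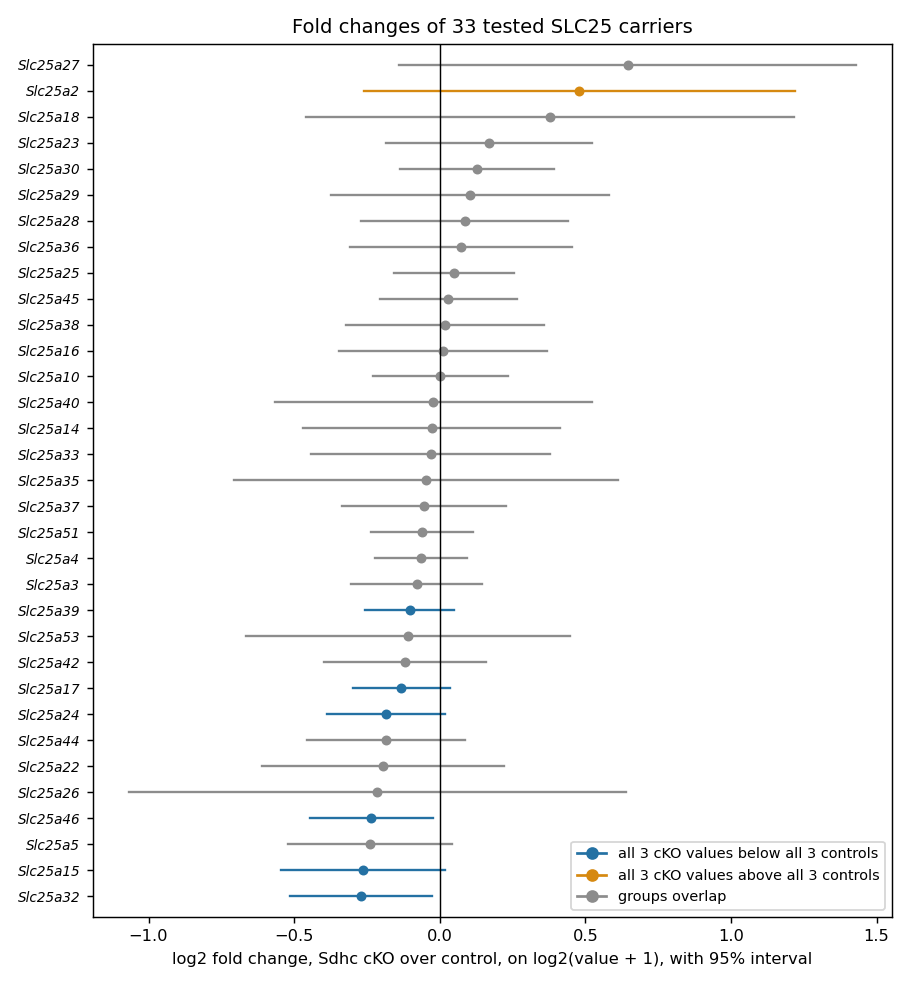
Log2 fold change (Sdhc cKO over control, on log2(value + 1)) of 33 of the 34 tested members with the 95% interval of the limma fit (n = 3 each). The 6 members in blue and the 1 in orange had groups that did not overlap, and of the intervals drawn those of Slc25a32 and Slc25a46 leave out 0.

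Cofactor and nucleotide carriers held 8 tested members, of which 6 had negative fold changes. Slc25a32 (chromosome 15, 39091231 to 39112716, minus strand, GRCm38) encodes the carrier for folate and FAD. It had 290, 346 and 312 normalised counts in cKO 1, 2 and 3, against 381, 395 and 367 in controls 1, 2 and 3. Every cKO library lay below every control. The means of 316 ± 28.2 in cKO and 381 ± 13.8 in control (SD, n = 3 each) put cKO at 83.0% of control, which in log2 was -0.27 (standard error 0.11, with a 95% interval from -0.51 to -0.03 and an adjusted p of 0.978 by limma). Leaving out each library in turn gave -0.34 to -0.21.

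Slc25a17 (chromosome 15, 81318911 to 81360812, minus strand) had 836, 864 and 844 normalised counts in cKO 1, 2 and 3, against 945, 944 and 899 in controls 1, 2 and 3. The groups did not overlap, at means of 848 ± 14.7 in cKO and 929 ± 26.4 in control (SD, n = 3 each). Its log2 fold change was -0.13 (standard error 0.07, with an adjusted p of 0.978 by limma). Slc25a51, the NAD carrier gene, overlapped, with 1555, 1768 and 1637 in cKO and 1687, 1766 and 1716 in control libraries. The coenzyme A carrier gene Slc25a42 had a log2 fold change of like size (-0.12) with overlapping groups. The pyrimidine nucleotide carrier genes had log2 fold changes of -0.03 (standard error 0.18) for Slc25a33 and 0.07 (standard error 0.16) for Slc25a36. With 1 library left out these ran from -0.17 to 0.06 for Slc25a33 and from -0.04 to 0.25 for Slc25a36. Slc25a16 had 0.01 (standard error 0.15).

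Amino acid and glutathione carriers, 10 members all of which were tested, were lower in sum. They summed to 3144, 3251 and 3239 normalised counts in cKO 1, 2 and 3, against 3473, 3450.0 and 3497 in controls 1, 2 and 3. The sums did not overlap, and cKO was at 92.5% of control (3211 ± 59.0 in cKO against 3473 ± 23.3 in control, SD, n = 3 each). The sum did not overlap under the other scalings either. The largest part of the sum was Slc25a39, at means of 1480 in cKO and 1590 in control, so the sum mainly follows the abundant members. Of the 10 members 6 had negative and 4 positive fold changes, with a median of -0.06, against -0.05 over all tested members.

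Within this group Slc25a15, the ornithine carrier of the urea cycle (chromosome 8, 22375551 to 22398597, minus strand), had 235, 296 and 295 normalised counts in cKO 1, 2 and 3, against 324, 335 and 328 in controls 1, 2 and 3. All cKO values were below all controls, and cKO 1 lay lowest. The means were 275 ± 34.8 in cKO and 329 ± 5.63 in control (SD, n = 3 each), or in log2 -0.27 (standard error 0.12, with a 95% interval from -0.55 to 0.02 and an adjusted p of 0.978 by limma). Without cKO 1 it was -0.16. Slc25a39 (chromosome 11, 102402985 to 102407946, minus strand) carries glutathione into the matrix and had 1472, 1460 and 1507 normalised counts in cKO, against 1560, 1585 and 1625 in controls. These groups did not overlap either, with a log2 fold change of -0.10 (standard error 0.07, with an adjusted p of 0.978 by limma) and a coefficient of variation over all 6 libraries of 4.28%.

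Slc25a44, the carrier of branched-chain amino acids, had 459, 599 and 573 normalised counts in cKO against 589, 617 and 637 in controls, and Slc25a22, a glutamate carrier, had 192, 297 and 264 in cKO against 248, 308 and 296 in controls. Both were lower in all 3 pairs of same-numbered libraries, while the groups overlapped, with log2 fold changes of -0.19 (standard error 0.12) and -0.20 (standard error 0.18). Without cKO 1 these were -0.07 for Slc25a44 and -0.014 for Slc25a22. The carrier of S-adenosylmethionine, the methyl donor, is encoded by Slc25a26. It was read at 22.1, 46.1 and 45.2 normalised counts in cKO and 27.8, 52.9 and 49.5 in controls, so replicate 1 was low in both groups. Its log2 fold change of -0.21 (standard error 0.37) turned to 0.12 without cKO 1.

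The ornithine carrier gene Slc25a2 was the only tested member with all cKO values above the controls. It was near the filter, at 19.1, 10.8 and 14.0 normalised counts in cKO against 10.2, 9.80 and 9.90 in controls. It passed the filter through 4 libraries, the 3 cKO libraries and control 1, so it was tested only because cKO was high. The log2 fold change was 0.48 (standard error 0.32, with an adjusted p of 0.978 by limma). Slc25a18, the other glutamate carrier gene, had 35.2, 28.0 and 38.7 in cKO and 15.7, 42.1 and 25.3 in controls, with a log2 fold change of 0.38 (standard error 0.36) that was 0.042 without control 1 and 0.72 without control 2. The glycine carrier gene Slc25a38 (0.02), the basic amino acid carrier gene Slc25a29 (0.10) and Slc25a40 (-0.02), the paralog of Slc25a39, had groups that overlapped.

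Slc25a46 (chromosome 18) encodes an outer membrane protein that acts in fission and fusion and in lipid transfer rather than in known metabolite transport. It had 627, 745 and 716 normalised counts in cKO 1, 2 and 3, against 841, 812 and 799.65 in controls 1, 2 and 3. The groups did not overlap, and cKO 1 was again the lowest library. Means of 696 ± 61.5 in cKO and 817 ± 21.3 in control (SD, n = 3 each) gave a log2 fold change of -0.24 (standard error 0.09, with a 95% interval from -0.45 to -0.02 and an adjusted p of 0.978 by limma). Leaving out each library in turn gave -0.29 to -0.16.

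The ATP-magnesium carriers exchange ATP-Mg for phosphate and set the size of the adenine nucleotide pool in the matrix, and the longer forms respond to calcium. Slc25a24 (chromosome 3, 109123149 to 109168457, plus strand) had 893, 839.7 and 846 normalised counts in cKO 1, 2 and 3, against 1064, 903 and 969 in controls 1, 2 and 3. Its groups did not overlap with the deposited scaling but overlapped under each of the 3 other scalings, and the log2 fold change was -0.18 (standard error 0.09, with an adjusted p of 0.978 by limma). Slc25a23 had 901, 652 and 799.6 in cKO against 825, 621 and 645 in controls. It was higher in cKO in all 3 same-numbered pairs with overlapping groups, at 0.17 (standard error 0.15). Slc25a25 was level, at 492, 496 and 499 in cKO and 445, 503 and 493 in controls, a log2 fold change of 0.05 (standard error 0.09).

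**Figure D3:**
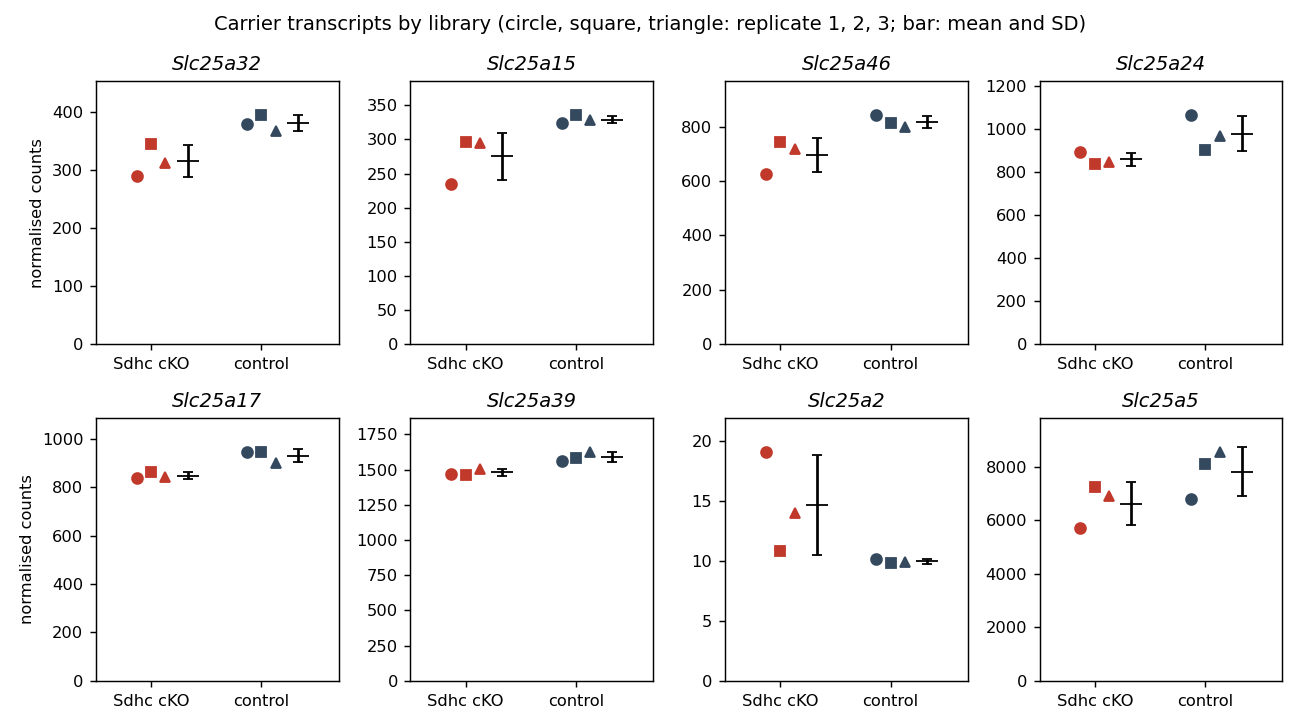
Normalised counts by library (points; circle, square and triangle are replicates 1, 2 and 3) with mean and SD (n = 3) for the 7 tested members whose groups did not overlap and for Slc25a5. Slc25a32 has cKO values of 290 to 346 and control values of 367 to 395, while Slc25a5 overlaps, at 5718 to 7250 in cKO and 6784 to 8549 in control.

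Adenine nucleotide exchange and phosphate uptake, the pair of steps that feed ATP synthase and export its product, rest on the most abundant members. The adenine nucleotide carriers summed to 8718 ± 739 in cKO and 10006 ± 961 in control (SD, n = 3 each), or 87.1% of control, and the groups overlapped. Slc25a5 (chromosome X, 36795651 to 36798807, plus strand) had 5718, 7250 and 6890 normalised counts in cKO 1, 2 and 3, against 6784, 8088 and 8549 in controls 1, 2 and 3. It was lower in cKO in all 3 same-numbered pairs, but cKO 2 and cKO 3 lay above control 1, so the groups overlapped. The means were 6619 ± 801 in cKO and 7807 ± 915 in control (SD, n = 3 each), or in log2 -0.24 (standard error 0.12, with a 95% interval from -0.52 to 0.04 and an adjusted p of 0.978 by limma). With the share of Y-linked reads as a numeric covariate, Slc25a5 passed, with a log2 fold change of -0.35 (limma adjusted p = 0.0323). That fit called 6.5% of all tested genes, 4.86% as lower, and 1 of the 34 members. With the replicate block, which called 0.00787% of all tested genes, 0 members passed. The gene lies on the X chromosome and the libraries differed in Xist and Y-linked reads as given above. Its log2 fold change was -0.14 without cKO 1, -0.34 without control 1 and -0.23 without replicate 1 of both groups. The part of the sex-linked difference in the other members was not tested beyond that fit.

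Slc25a4 was the steadiest tested member, with a coefficient of variation of 3.79% over the 6 libraries. It had 2173, 2061 and 2063 normalised counts in cKO and 2162, 2145 and 2280.2 in controls, a log2 fold change of -0.06 (standard error 0.07). The ratio of Slc25a4 to Slc25a5 counts was 0.380, 0.284 and 0.299 in cKO 1, 2 and 3 and 0.319, 0.265 and 0.267 in controls 1, 2 and 3. It was higher in cKO in all 3 same-numbered pairs, and the groups overlapped. Slc25a3 had 5918, 7248 and 6796 in cKO and 6481, 7134 and 7438 in controls, a log2 fold change of -0.08 (standard error 0.10). Processed pseudogenes copy Slc25a5, and 21.1% of its distinct 50-base words also occur in Gm5560 and 16.2% in Gm5529, so its count may miss or share reads.

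Carriers of organic acids were represented by Slc25a10 (chromosome 11, 120491840 to 120499187, plus strand), which exchanges succinate and malate for phosphate. It had 411, 376 and 359 normalised counts in cKO 1, 2 and 3, against 402, 362 and 381 in controls 1, 2 and 3. The groups overlapped, and the log2 fold change was 0.0016 (standard error 0.10, with a 95% interval from -0.23 to 0.23). The interval leaves room for a difference of 0.23 either way.

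The mitoferrins, which bring iron to the matrix for heme and iron-sulfur clusters, did not separate the groups. Slc25a37, mitoferrin 1, had 423, 403 and 450 in cKO and 514, 394 and 423 in controls, a log2 fold change of -0.05 (standard error 0.12). Slc25a28, mitoferrin 2, had 258, 235 and 255 in cKO and 292, 215 and 207 in controls, a log2 fold change of 0.09 (standard error 0.15). The ratio of Slc25a37 to Slc25a28 was lower in cKO in all 3 same-numbered pairs, at 1.64, 1.72 and 1.76 in cKO 1, 2 and 3 and 1.76, 1.84 and 2.05 in controls 1, 2 and 3, with control 1 below cKO 3. Erythroid cells are rich in mitoferrin 1, and the 7 erythroid markers in the table summed to 46.2 to 62.4 normalised counts in cKO and 24.2 to 124 in control libraries, with 4 of them at 0 in at least 1 library.

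Among the carriers related to uncoupling proteins, Slc25a30 had 1087, 889 and 904 normalised counts in cKO and 915, 778 and 940.4 in controls, a log2 fold change of 0.13 (standard error 0.11). Slc25a27 was low, at 19.1, 12.7 and 22.6 in cKO and 8.34, 11.8 and 13.2 in controls. Its log2 fold change of 0.65 (standard error 0.34, with a 95% interval from -0.14 to 1.43) was the highest of the tested members, and cKO 2 overlapped the controls. Slc25a14, on the X chromosome, had 73.3, 85.0 and 68.9 in cKO and 94.5, 70.6 and 68.2 in controls. Of the members with no settled substrate in the lists used, Slc25a45 had 353, 367 and 348 in cKO and 322, 347 and 378 in controls. The X-linked Slc25a53 had 72.3, 66.0 and 46.3 in cKO and 82.4, 57.8 and 58.3 in controls, and Slc25a43, beside Slc25a5 on the X chromosome, had 0.904 to 2.01 in cKO and 0.926 to 3.30 in controls. Groups overlapped at each of these 4 genes. Slc25a35 shares 31.3% of its exonic bases with Rangrf on the opposite strand. Since no source gives the strand setting of the counting, reads in the shared part cannot be told apart. The same holds for smaller shares of other members, among them 14.9% of Slc25a33 (with Gm13068) and 7.06% of Slc25a46 (with B930094E09Rik).

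**Figure D4:**
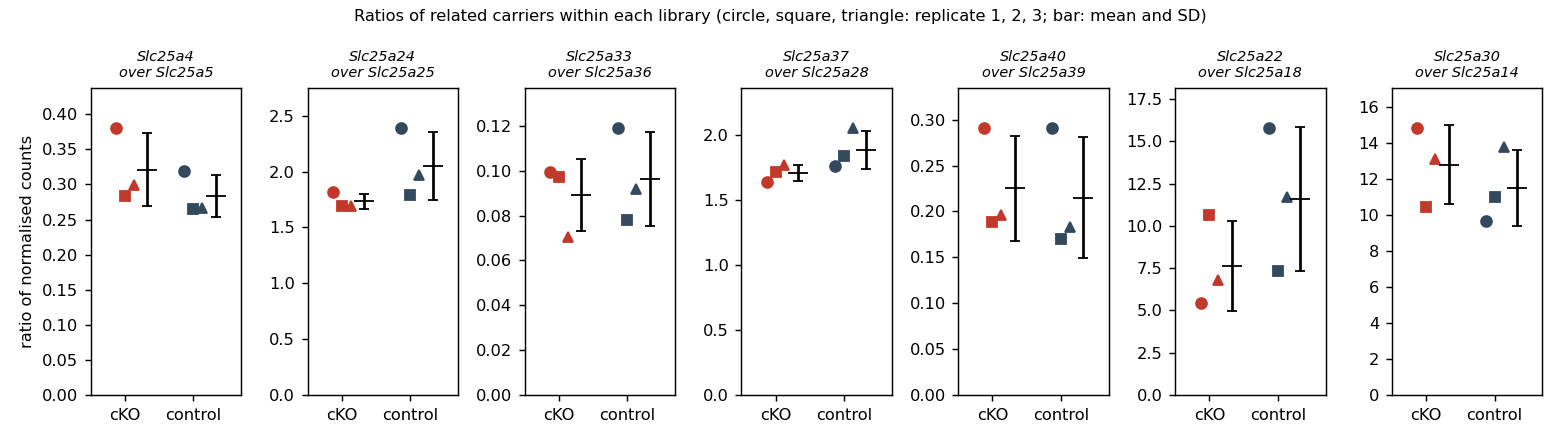
Ratio of normalised counts of 7 pairs of related carriers within each library (points; circle, square and triangle are replicates 1, 2 and 3) with mean and SD (n = 3 each). Groups overlap in each of the 7 pairs, and the ratio of Slc25a40 to Slc25a39 is 0.291 and 0.290 in replicate 1 of cKO and control and 0.170 to 0.196 in the other 4 libraries.

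Much of the variation of the family ran between libraries of the same genotype. Both replicate 1 libraries lay outside the other 4 at 14 of 34 tested members (41.2%), against 40% of all tested genes, a like share. They lay above at 8 members, against 19.7% of all tested genes, and below at 6, against 20.3%. An example, chosen after its values were seen, was Slc25a40, with 428, 276 and 295 normalised counts in cKO 1, 2 and 3 and 453, 270 and 298 in controls 1, 2 and 3. Slc25a35 had 153, 92.2 and 132 in cKO and 185, 94.1 and 118 in controls. The median coefficient of variation over the 6 libraries was 12.0% for the tested members and 11.8% for all tested genes. It was below 5% at 4 members (Slc25a4, Slc25a39, Slc25a25 and Slc25a51) and above 20% at 6. Between same-numbered libraries, cKO was lower in all 3 pairs at 11 of 34 members, against 21.8% of all tested genes, and higher at 3, against 14.6%. Without replicate 1 of both groups, 19 of 33 members with a value had negative fold changes, at a median of -0.03.

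**Figure D5:**
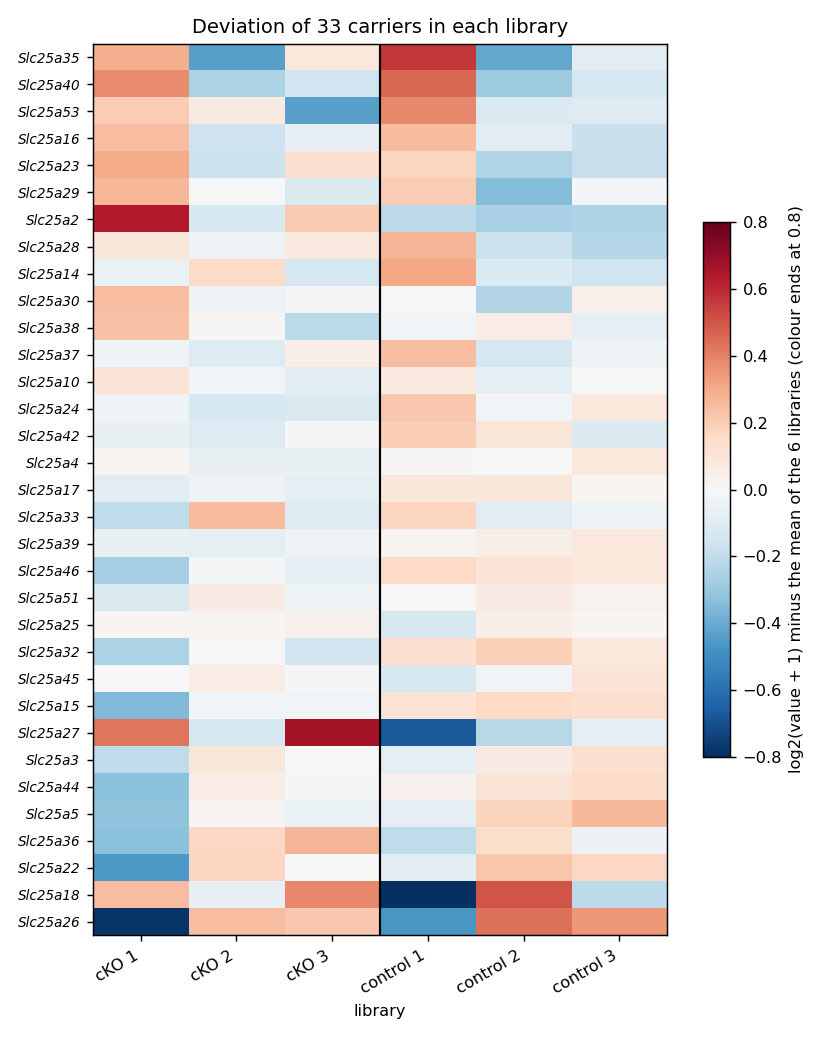
Log2(value + 1) of 33 of the 34 tested members in each library minus the mean of the 6 libraries, with cKO libraries left and controls right of the line, ordered by the sum of the deviations of cKO 1 and control 1. Both of these libraries are high at Slc25a40 near the top and low at Slc25a26 at the bottom.

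Among the other genes of the pathway listed, 0 passed on genotype alone. With the share of Y-linked reads as a covariate, 4 passed, namely Slc25a13, Ucp2, Tomm40 and Sfxn1, each with a negative fold change. That fit called 6.5% of all 12699 tested genes, 4.86% as lower. Tested genes in the lists were 5 left out by the rule, 3 under other symbols, 14 for import and 7 for other channels. Of the family genes outside the members, Slc25a13, an aspartate and glutamate carrier, had 102, 179 and 150 normalised counts in cKO and 182, 240.1 and 185 in controls, with no overlap and a log2 fold change of -0.51 (standard error 0.22, with an adjusted p of 0.978 by limma, and -0.74 with an adjusted p of 0.0169 under the covariate). The other 4 genes left out had log2 fold changes of -0.13 to -0.01, and of these Slc25a12 also had groups that did not overlap, at 1442 to 1498 in cKO and 1556 to 1680.1 in controls. Ucp2, Mtch1 and Mtch2, family genes under other symbols, had -0.15 to -0.08, with Ucp2 at -0.25 under the covariate (limma adjusted p = 0.0471). Of the 14 tested genes of 17 listed for import of carriers, 10 had negative and 4 positive fold changes with a median of -0.06, and 1, the receptor gene Tomm70a, had groups that did not overlap. Tomm40, the outer membrane pore, had 358.5, 575 and 521 normalised counts in cKO and 438, 748 and 663 in controls, a log2 fold change of -0.34 (standard error 0.24), and -0.59 under the covariate (limma adjusted p = 0.0217). The chaperone gene Timm9 had -0.18 (standard error 0.17). Among 7 genes of other mitochondrial channels and carriers, 6 had negative fold changes, and Sfxn1, a serine carrier outside the SLC25 family, had 1467, 1694 and 1600.3 in cKO and 1805, 1983 and 1981 in controls. Its groups did not overlap, at -0.28 (standard error 0.08, with an adjusted p of 0.978 by limma, and -0.34 with an adjusted p of 0.0187 under the covariate).

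Markers of natural killer (NK) cells were lower in sum in cKO libraries. The 5 NK markers summed to 334 to 407 normalised counts in cKO and 465 to 516 in control libraries, and each of the 3 that were tested, Klrk1, Klrd1 and Eomes, had a negative fold change with overlapping groups. None of the 5 was at 0 in a library, and the NK-defining gene Ncr1 had 1.81 to 8.61 in cKO and 3.70 to 22.0 in controls. Klrb1c had 4.52 to 31.1 in cKO and 5.88 to 30.6 in controls. The CD8 T cell markers Cd8a and Cd8b1 went the other way, with positive fold changes and overlapping groups. They summed to 235 to 547 in cKO and 278 to 368 in control libraries. Whether NK cells were present, and their part in the values of the carriers, was not tested.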

How the data were processed

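RNA-seq of 6 libraries of mouse Th1 cells was used. STAR, HTSeq and DESeq2 and the build mm10 are the tools and build of the submitters' processing notes. No source used here gives versions, settings, annotation or strand. The signal values were made by the authors as reads over a size factor: in the deposited table all values of a library (100%) were whole multiples of its step to within 0.01, and reads were recovered from them. Precision is limited by 3 libraries a group and, at low genes, by few reads.

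The test was limma-trend (version 3.58.1 under R 4.3.3) on log2(value + 1) for genes over 10 in 3 or more libraries, with Benjamini-Hochberg adjustment over all 12699 genes. Fold changes on this scale understate those of low genes. The members, the lists and the alternatives were chosen with earlier results of these data known. By rule, per-library values are given for called members, members without overlap and the 5 highest and 5 lowest fold changes. The rule also took the most abundant of each role and X-linked members. Outside the rule, they are given for Slc25a4, Slc25a22, Slc25a25, Slc25a28, Slc25a35, Slc25a40 and Slc25a44. The remaining members are described more briefly. Exact permutation tests over 3 against 3 libraries cannot go below 0.1, and gave 0.1 for each member without overlap. Alternatives were limma-voom, edgeR 4.0.16 and DESeq2 1.42.0 run on the recovered reads, other scalings, filters and pseudocounts, array weights, a replicate block, a covariate of Y-linked reads and libraries left out.

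Same-numbered libraries deviated together from their group means across genes (correlations of 0.579, 0.458 and 0.188 for numbers 1, 2 and 3), so they were taken as pairs on that ground alone, as the labels do not give a pairing. Number 3 was the least clear, since cKO 3 correlated more with control 2 (0.272). Deviations from a group mean are tied to each other, so the 3 correlations are not independent. Pairs 2 and 3 also differed in sex-linked reads. Xist had 0 normalised counts in cKO 2 and 2490.5 in control 2, and 2.15 in cKO 3 and 6406 in control 3. The part of this in the differences within pairs was not tested. The methods were tested on simulated data with 200 changed genes. The simulated spread was estimated with the Y-linked share in the model and held no replicate effect. It therefore does not show how the main fit, on genotype alone, performs on these libraries. Positions and exon lengths are those of GENCODE M21 (GRCm38), which placed all 40 members. Of these, 1 is counted with the family but is not reported here by name or drawn.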

Additional observations from a re-analysis of the deposited data

How the results depend on the processing

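With all 6 libraries, 0 genes passed over all tested genes, with 445 at an unadjusted p under 0.05. With the replicate block 1 gene was called, with array weights 1, with DESeq2 2 and with the Y-linked covariate 826, and 0 to 1 with libraries left out (1 without cKO 1 and 1 without replicate 1 of both groups). Members called were 0 throughout, including under the block and with libraries left out, except for 1 with the Y-linked covariate. The median of the members was -0.016 with upper-quartile scaling and -0.078 to -0.0085 with libraries left out. Members without overlap numbered 6 to 8 under the other scalings and filters (17.1% to 20.6%, against 9.42% to 10.1% of all tested genes). With fewer values to separate, the share rose for all genes. With 1 library left out the members numbered 8 to 13, with 13 without control 1 (38.2%, against 25.8% of all tested genes) and 11 without cKO 2 (32.4%, against 22.3%). Without replicate 1 of both groups they were 14 of 33 (42.4%, against 38.7%). The count of members with negative fold changes was 18 to 25 over all settings. Of 395 values of named members under the alternatives, 373 kept their direction and side of the threshold and 21 turned sign. With array weights they were -0.028 for Slc25a10, 0.046 for Slc25a14, 0.022 for Slc25a37 and -0.026 for Slc25a45. With the covariate they were 0.0065 for Slc25a14 and 0.048 for Slc25a53, and with upper-quartile scaling, which moved the median of all tested genes to 0.020, 0.0064 for Slc25a14. Without replicate 1 of both groups they were -0.013 for Slc25a10, 0.14 for Slc25a14, 0.060 for Slc25a37 and -0.021 for Slc25a45. With 1 library left out, they ran from -0.052 to 0.044 for Slc25a10, -0.11 to 0.12 for Slc25a14, -0.50 to 0.12 for Slc25a26, -0.14 to 0.0025 for Slc25a3, -0.13 to 0.057 for Slc25a37, -0.027 to 0.088 for Slc25a45 and -0.24 to 0.081 for Slc25a53. The cause of these changes was not tested.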
